A study of Homo sapiens with 6 samples.

Results

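The tricarboxylic acid (TCA) cycle enzymes described here are 9 nuclear genes, CS, IDH2, IDH3A, IDH3B, OGDH, DLST, SUCLG1, FH and MDH2, out of 57773 genes in the deposited table. They were taken from it by gene symbol, and all 9 were found, each as 1 row. Their transcripts were measured by RNA sequencing of total RNA from Hep3B, a human hepatocellular carcinoma cell line, grown in EMEM medium with fetal bovine serum and antibiotics. Cells carried either a control siRNA (si-Cont, n = 3 libraries) or an siRNA against SMARCA4 (si-SMARCA4, n = 3 libraries). The target, SMARCA4 (BRG1), drives SWI/SNF complexes, which move nucleosomes with energy from ATP, and the comparison asks which transcripts differ when it is depleted. Neither the siRNA sequences nor the time after transfection is given in the sources used here. It is also not stated whether replicates were separate cultures, so p-values speak only for the spread between these libraries.

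The TCA cycle runs in the mitochondrial matrix, where acetyl groups are oxidised to carbon dioxide while NADH and FADH2 are made for the respiratory chain. Citrate synthase joins acetyl-CoA to oxaloacetate, isocitrate and 2-oxoglutarate dehydrogenases release carbon dioxide, succinyl-CoA synthetase makes a nucleoside triphosphate, and succinate dehydrogenase, fumarase and malate dehydrogenase return the carbon to oxaloacetate. In hepatocytes the cycle also supplies carbon for glucose, lipid and amino acid synthesis.

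Whole reads recovered from the deposited values came to 19084308 to 22719014 over genes per library. They made up 68.0% ± 2.15 (SD, n = 3) of the FPKM denominator in si-Cont and 63.6% ± 0.717 in si-SMARCA4. SMARCA4 stood at 15.7, 19.5 and 16.6 FPKM in si-Cont and at 3.80, 3.78 and 4.01 FPKM in si-SMARCA4, or 22.3% of si-Cont. FPKM, the unit of the table, is reads scaled by gene length and by the library's read number. The hepatocyte genes ALB and AFP stood at 2269 and 213 FPKM in si-Cont, while the leukocyte gene PTPRC averaged at most 0.0395 FPKM and the endothelial genes VWF, CDH5 and KDR were listed at 0 in every library. Of 10 hepatocyte genes 5 were lower and 3 higher in the test described below, beside 33.6% and 22.4% of all genes tested. Their summed levels were 3380 to 3786 FPKM in si-Cont and 2494 to 2641 FPKM in si-SMARCA4. The 6 leukocyte genes summed to 30.7 to 36.6 and 26.4 to 27.2 FPKM, nearly all from LYZ and CD68, and the 5 fibroblast genes to 7.59 to 8.56 FPKM in si-Cont and at least 11.6 FPKM in si-SMARCA4, nearly all from LUM. The part of these lists and of the lower share over genes in the results on the enzymes was not tested. Si-Cont replicate 2 differed most from its group, with a chi-square per degree of freedom of 8.50 and 10.0 against the other si-Cont libraries, which gave 2.98 against each other. It also had the lowest si-Cont value for 8 of the 9 enzymes, so results that change without it are given both ways.

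Transcripts of 7 of the 9 enzymes fell in si-SMARCA4 and 0 rose, with levels between 74.9% and 89.4% of si-Cont among the 7. IDH2 and IDH3B fell the most, to 74.9% and 75.0% of si-Cont. The other 5 that fell were IDH3A, SUCLG1, MDH2, OGDH and CS, and DLST and FH did not pass the test. The test was limma on log2(FPKM + 1) over the 11123 genes averaging 1 FPKM or more, with Benjamini-Hochberg adjustment over all of them and a threshold of 0.05. In the same fit 56.0% of all genes were called, 33.6% lower and 22.4% higher. Fold changes are on the log2(FPKM + 1) scale, which understates the change of low genes such as IDH3A. The median log2 fold change was -0.19 over the 9 enzymes and -0.04 over all genes tested. The groups did not overlap for 7 of the 9, all 7 lower in si-SMARCA4, as they did not for 62.3% of all genes tested (36.6% lower and 25.7% higher). FPKM values are shares of a library, so fewer cells with the transcript and less of it in each cell cannot be told apart.

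**Figure D1:**
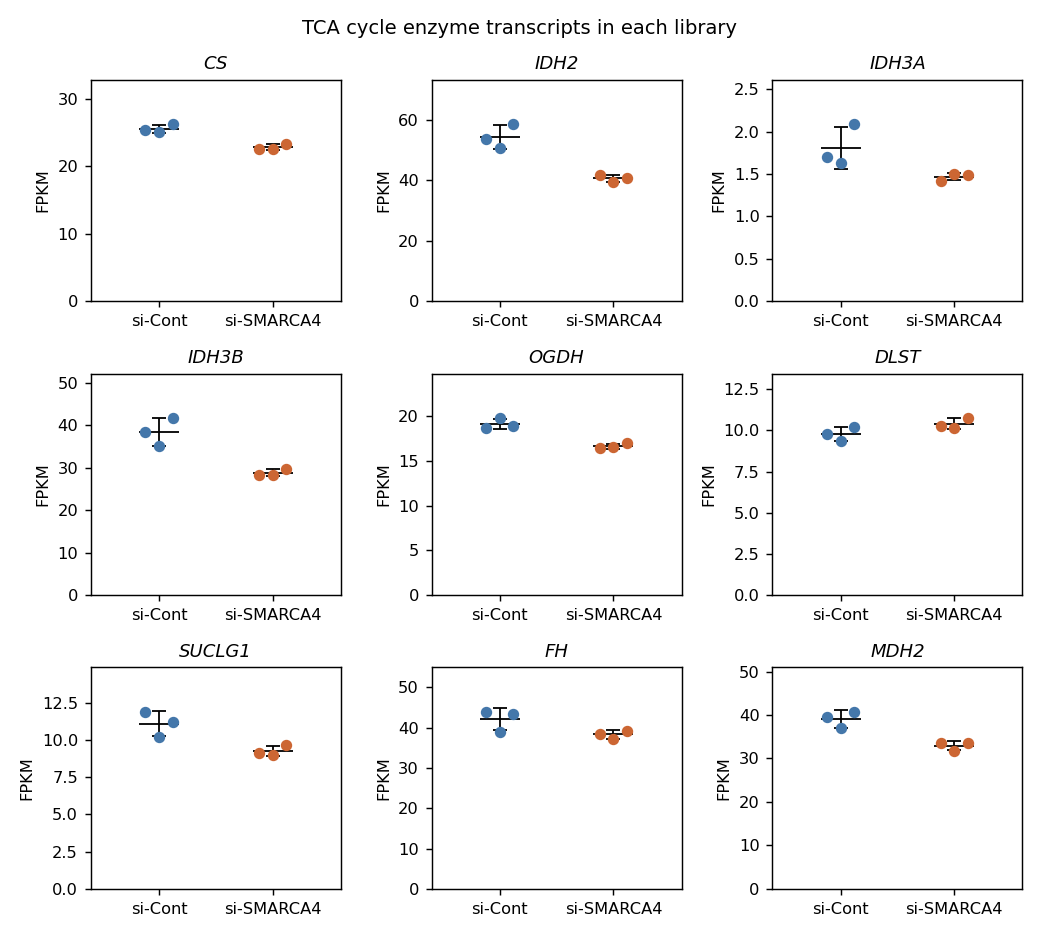
FPKM of each of the 9 TCA cycle enzyme transcripts (vertical axes, each from 0) in the 3 si-Cont and 3 si-SMARCA4 libraries. Points are libraries and bars are the mean ± SD; the groups are apart for every gene except DLST and FH.

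Citrate synthase, encoded by CS (ENSG00000062485, chromosome 12), forms citrate and opens the cycle. Its transcript stood at 25.3, 25.0 and 26.3 FPKM in si-Cont and at 22.6, 22.5 and 23.3 FPKM in si-SMARCA4. All si-SMARCA4 libraries lay below all si-Cont libraries, and the log2 fold change was -0.16 (SE 0.05, limma adjusted p = 0.0181). The call was lost without si-Cont replicate 3 (limma adjusted p = 0.0708) and without si-SMARCA4 replicate 1 or 2 (0.0814 and 0.0810), with a log2 fold change of -0.17 to -0.14 over all 6 omissions.

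Isocitrate dehydrogenase comes in an NADP-dependent mitochondrial form, IDH2, and an NAD-dependent form built from the catalytic subunit IDH3A and the subunits IDH3B and IDH3G. IDH2 (ENSG00000182054, chromosome 15) was the most abundant of the 9 at 53.6, 50.8 and 58.6 FPKM in si-Cont, and stood at 41.7, 39.4 and 40.9 FPKM in si-SMARCA4. Every si-SMARCA4 library lay well below every si-Cont library, with a log2 fold change of -0.41 (SE 0.06, limma adjusted p = 0.000256).

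IDH3B (ENSG00000101365, chromosome 20) stood at 38.3, 35.2 and 41.8 FPKM in si-Cont and at 28.3, 28.4 and 29.8 FPKM in si-SMARCA4. Its groups were also well apart, and its log2 fold change of -0.40 (SE 0.06, limma adjusted p = 0.000386) was close to that of IDH2. IDH3A (ENSG00000166411, chromosome 15) was the least abundant of the 9, at 1.71, 1.63 and 2.09 FPKM in si-Cont and 1.42, 1.50 and 1.49 FPKM in si-SMARCA4, from 311 to 449 reads per library. Although the groups did not overlap, si-Cont replicate 3 stood above all others. The IDH3A level fell to 81.3% of si-Cont, and on the log2(FPKM + 1) scale the fold change was -0.18 (SE 0.07, limma adjusted p = 0.0363). Without si-Cont replicate 3 it was -0.11 (limma adjusted p = 0.148), and the call was also lost without any 1 of the si-SMARCA4 libraries (0.0685 to 0.0985). The gene length behind the IDH3A values was 6832 bases, of which 38.2% also lie in exons of ACSBG1 on the opposite strand in GENCODE v29, a gene with a mean of 0.0181 FPKM here. Whether the counting used strand is not given in the sources used here.

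The 2-oxoglutarate dehydrogenase complex is made of OGDH, which decarboxylates 2-oxoglutarate, DLST, which carries the succinyl group on its lipoyl arm, and DLD, which reoxidises the lipoyl group and is shared with pyruvate dehydrogenase. OGDH (ENSG00000105953, chromosome 7) stood at 18.7, 19.8 and 18.9 FPKM in si-Cont and at 16.4, 16.6 and 17.0 FPKM in si-SMARCA4, without overlap (log2 fold change -0.19, SE 0.05, limma adjusted p = 0.00621). The OGDH call was lost under upper-quartile and quantile normalization (log2 fold change -0.12 in each, limma adjusted p = 0.0550 and 0.0791). DLST (ENSG00000119689, chromosome 14) was the only enzyme of the 9 with a higher mean in si-SMARCA4. Its values were 9.75, 9.38 and 10.2 FPKM in si-Cont and 10.3, 10.1 and 10.8 FPKM in si-SMARCA4, the groups overlapped, and the difference did not pass (log2 fold change 0.08, 95% interval -0.03 to 0.19, limma adjusted p = 0.181). Under median-ratio scaling DLST was called higher (log2 fold change 0.13, limma adjusted p = 0.0118).

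Succinyl-CoA synthetase pairs the common subunit SUCLG1 with SUCLG2 in its GTP-forming version or with SUCLA2 in its ATP-forming version. SUCLG1 (ENSG00000163541, chromosome 2) stood at 11.9, 10.2 and 11.2 FPKM in si-Cont and at 9.11, 9.01 and 9.65 FPKM in si-SMARCA4. The groups did not overlap, and the log2 fold change was -0.24 (SE 0.06, limma adjusted p = 0.00579).

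Fumarase, encoded by FH (ENSG00000091483, chromosome 1), hydrates fumarate to malate. Its transcript stood at 43.9, 38.9 and 43.4 FPKM in si-Cont and at 38.4, 37.2 and 39.2 FPKM in si-SMARCA4. Only si-Cont replicate 2 reached into the si-SMARCA4 range, and the difference did not pass (log2 fold change -0.13, 95% interval -0.26 to 0.00066, limma adjusted p = 0.0836). Without si-Cont replicate 2 FH was called lower (log2 fold change -0.19, limma adjusted p = 0.00133), as it was in the fit with replicate number as a block (limma adjusted p = 0.0287).

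Mitochondrial malate dehydrogenase, MDH2 (ENSG00000146701, chromosome 7), closes the cycle by making oxaloacetate. MDH2 stood at 39.6, 36.9 and 40.8 FPKM in si-Cont and at 33.6, 31.7 and 33.5 FPKM in si-SMARCA4. Its groups did not overlap, with a log2 fold change of -0.24 (SE 0.06, limma adjusted p = 0.00383).

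In order of FPKM in si-Cont, IDH2 was followed by FH, MDH2 and IDH3B, whose library ranges overlapped in that order (38.9 to 43.9, 36.9 to 40.8 and 35.2 to 41.8 FPKM), then by CS, OGDH, SUCLG1, DLST and IDH3A with no overlap between neighbours. In si-SMARCA4 no neighbours overlapped, and DLST stood above SUCLG1 (10.1 to 10.8 against 9.01 to 9.65 FPKM) where in si-Cont it stood below (9.38 to 10.2 against 10.2 to 11.9 FPKM). FPKM is scaled by gene length, but that length counts all annotated exons: in 7 of the 9 genes it equalled the summed exon bases of GENCODE v29, so a gene with long exons that these cells do not use is understated.

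The size of these differences varied with the scaling of the libraries. The si-SMARCA4 libraries had lower FPKM totals (159085 to 163933, against 167786 to 182293 in si-Cont), and 59.9% of all called genes were lower. That share was 50.5% under median-ratio scaling, 47.8% under upper-quartile scaling, 49.5% under quantile normalization and 50.3% with voom on the recovered reads, where the median log2 fold change of all genes lay within 0.02 of 0. Under median-ratio scaling 6 of the 9 enzymes were lower and DLST higher, against 29.9% and 29.2% of all genes. With upper-quartile scaling 5 were lower and DLST higher, against 28.2% and 30.8%. With quantile normalization 4 were lower and DLST higher, against 29.5% and 30.1%, and with voom 7 were lower and DLST higher, against 30.2% and 29.8%. The fit with replicate number as a block called 8 lower and 0 higher, against 36.4% and 24.4%. IDH2, IDH3B, SUCLG1 and MDH2 were called lower under each of the 5 normalizations compared, with log2 fold changes between -0.41 and -0.26 for IDH2, -0.40 and -0.26 for IDH3B, -0.24 and -0.17 for SUCLG1, and -0.24 and -0.10 for MDH2. The value nearest 0 came from quantile normalization for IDH2, IDH3B and MDH2 (limma adjusted p = 0.0126 for MDH2). The CS call was lost under quantile normalization (log2 fold change -0.08, limma adjusted p = 0.0842), and that of IDH3A under median-ratio, upper-quartile and quantile normalization (0.0616, 0.0777 and 0.0591). FH stood at 0.02 under quantile normalization (limma adjusted p = 0.656) and below 0 under the other 4, with no call in any.

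**Figure D2:**
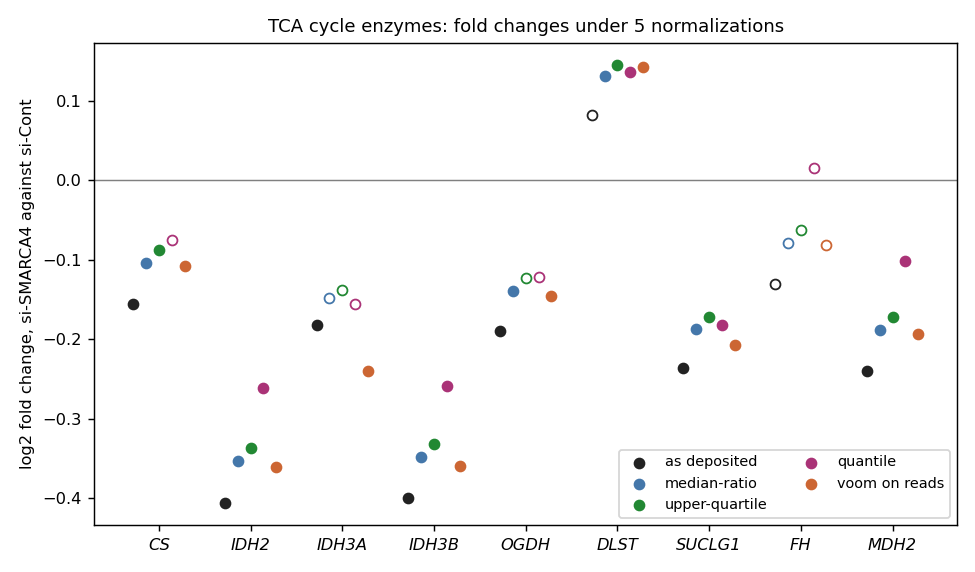
Log2 fold change (vertical axis) of each of the 9 enzymes, si-SMARCA4 against si-Cont, with FPKM as deposited and under 4 other normalizations; filled points passed the adjusted p threshold of 0.05 and open points did not. DLST is above 0 in all 5, and FH crosses 0 under quantile normalization.

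A ratio of 2 transcripts within a library does not depend on how that library is scaled. Over 13 such pairs of subunits, neighbours or counterparts, the groups did not overlap for 9. Among single genes tested the groups did not overlap for 62.3%, and the share over other gene pairs was not examined. An exact permutation test, two-sided, gave p = 0.1 for each of the 9 pairs without overlap, the smallest that 3 against 3 libraries allow. After Benjamini-Hochberg adjustment over the 13 pairs it was 0.144, so none can pass a threshold of 0.05.

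Within the NAD-dependent isocitrate dehydrogenase, IDH3G stood at 4.59, 4.07 and 5.09 FPKM in si-Cont and at 4.83, 4.87 and 5.17 FPKM in si-SMARCA4, and did not pass the test (limma adjusted p = 0.229). It was called higher under median-ratio and upper-quartile scaling (limma adjusted p = 0.0478 and 0.0318) and without si-Cont replicate 3 (limma adjusted p = 0.0470). The log2 ratio of IDH3B to IDH3G was 3.06, 3.11 and 3.04 in si-Cont and 2.55, 2.55 and 2.53 in si-SMARCA4. In si-Cont IDH3B stood at 8.40 times the IDH3G level per gene length and in si-SMARCA4 at 5.82 times, a log2 difference of -0.53 (SE 0.02). The log2 difference was -0.41 (SE 0.05) for IDH3A to IDH3G and 0.12 (SE 0.06) for IDH3A to IDH3B, where si-Cont replicate 3 lay next to the si-SMARCA4 values. The IDH3G gene overlaps SSR4 on the opposite strand over 10.2% of its exon bases in GENCODE v29, which leaves the assignment of some of its reads uncertain.

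Within the 2-oxoglutarate dehydrogenase complex the log2 ratio of OGDH to DLST was 0.94, 1.08 and 0.89 in si-Cont and 0.67, 0.71 and 0.66 in si-SMARCA4, a difference of -0.29 (SE 0.06). DLD stood at 12.3, 10.9 and 11.5 FPKM in si-Cont and at 11.4, 10.8 and 10.4 FPKM in si-SMARCA4, with no call (limma adjusted p = 0.217), though it was called lower without si-Cont replicate 2 (limma adjusted p = 0.0430). The log2 ratio of DLST to DLD differed by 0.18 (SE 0.08) without overlap, and that of OGDH to DLD by -0.11 (SE 0.09) with overlap (exact permutation p = 0.4).

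The largest differences among the 13 pairs involved SUCLG2, the GTP-specific subunit of succinyl-CoA synthetase. SUCLG2 fell from 11.5, 9.83 and 11.2 FPKM to 6.07, 5.70 and 5.64 FPKM, which is 53.5% of the control level (log2 fold change -0.80, SE 0.06, limma adjusted p = 1.65e-06). The ATP-specific subunit SUCLA2 stood at 4.48 ± 0.404 FPKM in si-Cont and 3.88 ± 0.423 FPKM in si-SMARCA4 (SD, n = 3 each) and did not pass (limma adjusted p = 0.0668). It was called lower without si-Cont replicate 2 or si-SMARCA4 replicate 2 (limma adjusted p = 0.0231 and 0.0242) and with the replicate block (0.0473). The log2 ratio of SUCLG2 to SUCLA2 was 1.22, 1.25 and 1.35 in si-Cont and 0.65, 0.40 and 0.70 in si-SMARCA4, a difference of -0.69 (SE 0.10). SUCLG1 stood at 1.02 times the SUCLG2 level in si-Cont and at 1.60 times in si-SMARCA4 (log2 difference 0.64, SE 0.06), while its ratio to SUCLA2 overlapped between groups (log2 difference -0.05, SE 0.12, exact permutation p = 0.7).

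Among counterparts in the cytosol, IDH1 and MDH1 fell to 74.0% and 74.4% of si-Cont (log2 fold change -0.43 and -0.41, limma adjusted p = 0.000172 and 0.000334). IDH1, the NADP-dependent cytosolic isocitrate dehydrogenase, had a ratio to IDH2 that overlapped between groups (log2 difference 0.02, SE 0.04, exact permutation p = 0.7). For MDH1, the cytosolic malate dehydrogenase, the log2 ratio of MDH2 to MDH1 was 0.20, 0.30 and 0.23 in si-Cont and 0.41, 0.43 and 0.42 in si-SMARCA4, without overlap. The log2 ratio of FH to MDH2 differed by 0.11 (SE 0.02) without overlap.

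**Figure D3:**
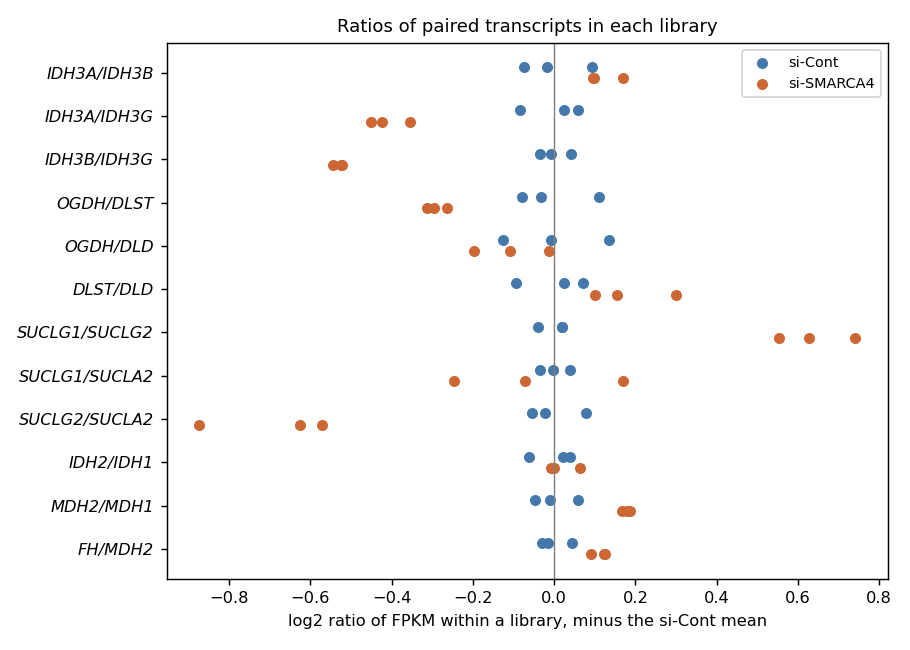
Log2 ratio of FPKM between paired transcripts in each library, minus the si-Cont mean of that pair (horizontal axis), for the pairs described (rows); points are libraries. The 3 si-SMARCA4 points of SUCLG1/SUCLG2, SUCLG2/SUCLA2, IDH3B/IDH3G and IDH3A/IDH3G lie farthest from 0.

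An earlier search of these data found that genes whose 3′ untranslated region (3′ UTR) holds TGTCCA, or CTGTCCA or TGTCCAA around it, were lower on average in si-SMARCA4. The longest annotated 3′ UTR of each enzyme in GENCODE v29 (GRCh38) was searched for these letters on the transcript strand. The matches are shown because they part the 9 enzymes into 2 groups. The matched letters are in capitals, with 11 transcript bases on each side, 5′ to 3′.
IDH3B: acccataggccCTGTCCAtacccatgtaa
MDH2: tggatgttcatCTGTCCAcaacagctttt
IDH2: tccagtttctgTGTCCAgttctccattc
OGDH: agtctctgcagTGTCCAttatctgctgt
SUCLG1: tttgcttctgtTGTCCActgattaatca
SUCLG2: tttttccatgaTGTCCAAttttgttgtgg
SDHD: tctaaaacaatCTGTCCAcaaatataaaa
SDHC: ctagatgtgtgCTGTCCAgcatggagccg
SDHA: gctcatgcatgTGTCCAtgtcataactg

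The first 5 are the enzymes with a match, and the last 4 are the other genes of the cycle with a match, of which SUCLG2, SDHD and SDHA fell and SDHC did not pass the test. SDHC held 4 matches, of which 1 is shown, in a 3′ UTR of 12907 bases annotated for 1 of its 3 coding transcripts. The matches lie at chr20:2658432-2658438 (reverse strand) in IDH3B, chr7:76067353-76067359 (forward) in MDH2, chr15:90083731-90083736 (reverse) in IDH2, chr7:44708589-44708594 (forward) in OGDH and chr2:84423668-84423673 (reverse) in SUCLG1, all on GRCh38. Those of SUCLG2 and SDHD lie at chr3:67374817-67374823 (reverse) and chr11:112095659-112095665 (forward), and those shown of SDHC and SDHA at chr1:161366664-161366670 and chr5:256483-256488 (both forward). TGTCCA was in the 3′ UTR of 3 of 4 annotated coding transcripts of IDH3B, 2 of 4 of MDH2, 1 of 3 of IDH2, 2 of 7 of OGDH and 1 of 1 of SUCLG1. Which of these transcripts the cells made was not examined.

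Of the 9 enzymes, 5 held TGTCCA and 4 (CS, IDH3A, DLST and FH) did not, while 36.2% of 10295 searched genes that were tested held it. Of all genes with it 39.8% were lower and 19.8% higher, and of all without it 30.6% and 24.7%. Log2 fold changes ran from -0.41 to -0.19 in the 5 with a match (median -0.24) and from -0.18 to 0.08 in the 4 without (median -0.14), so both enzymes that did not pass the test were among the 4 without. The letters were chosen on the fold changes of these same libraries, IDH3A and OGDH at the boundary differ by less than their standard errors, and no test was made of the split. The 2 ranges also overlapped on other scales. With a pseudocount of 0.1 IDH3A stood at -0.27, below OGDH (-0.20), MDH2 (-0.25) and SUCLG1 (-0.26). With voom IDH3A stood at -0.24 and OGDH at -0.15. CS and IDH3A fell with no such letters in the searched window.

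The 300 bases around the annotated start (250 before and 50 after) were available from RefSeq (GRCh38.p14) for 8 of the 9 enzymes, all but OGDH. They were searched on both strands for the letters ACCGGAAGT, a core bound by ETS factors such as GABP, for GCGCATGCG, bound by NRF1, and for TCAAGGTCA, bound by oestrogen-related receptors, since these factors are known for nuclear genes of mitochondrial proteins. ACCGGAAGT or its reverse complement was in MDH2 and DLST, 2 of 8, against 1.00% of 35116 promoters. The 2 shares are not alike. An enzyme counted if any promoter under its symbol matched, while the 35116 are single promoters and not only those of genes tested here. The other letters were in none of the 8, and in 1.92% and 0.353% of all promoters. Outside the 9 enzymes, the cycle gene SDHD held the NRF1, ETS and oestrogen-related receptor letters, at -110, -78 and 11 bases from its start. The matches of MDH2 and DLST, in capitals, are shown because MDH2 fell and DLST did not pass the test while holding the same letters.
MDH2: ggcgagcgcgACCGGAAGTccggtcactc
DLST: ggcccgccccACTTCCGGTtgttgtccgg

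They lie at chr7:76048036-76048044 in MDH2 and chr14:74881893-74881901 in DLST, both genes on the forward strand. Searches were made for exact letters only, and with 1 kind of match in the MDH2 and DLST promoters no match overlapped another.

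The 9 other genes of the cycle itself had 5 members lower and 0 higher, beside 33.6% and 22.4% of all genes. SDHD (SDHD_1 in the table), a membrane anchor of succinate dehydrogenase, fell from 22.1, 19.4 and 20.9 FPKM to 8.76, 9.01 and 8.43 FPKM, which is 42.0% of the control level (log2 fold change -1.16, SE 0.06, limma adjusted p = 8.75e-08). Its catalytic partner SDHA fell to 82.9% and the iron-sulfur subunit SDHB to 87.0% of si-Cont (limma adjusted p = 0.00368 and 0.0426), with SDHB overlapping between groups. The SDHB call was lost without any 1 library other than si-Cont replicate 2 (limma adjusted p = 0.0572 to 0.150). It was also lost under each of the 4 other normalizations (limma adjusted p = 0.0503 to 0.0639) and with no filter on low values (0.136). The second anchor, SDHC, stood at 32.1 ± 2.58 FPKM in si-Cont and 29.6 ± 1.29 FPKM in si-SMARCA4 (SD, n = 3 each) and did not pass, except without si-Cont replicate 2 (limma adjusted p = 0.00396). Rows named as SDHA copies summed to 43.7% of the SDHA level, so the split of reads among them is uncertain. Of the 4 cytosolic counterparts 3 were lower, the third being ACO1 at 75.0% of si-Cont, and ACLY, which splits exported citrate, stood at 58.3 ± 2.20 and 59.0 ± 2.22 FPKM (limma adjusted p = 0.805). Under quantile normalization ACLY was called higher (limma adjusted p = 0.00802).

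**Figure D4:**
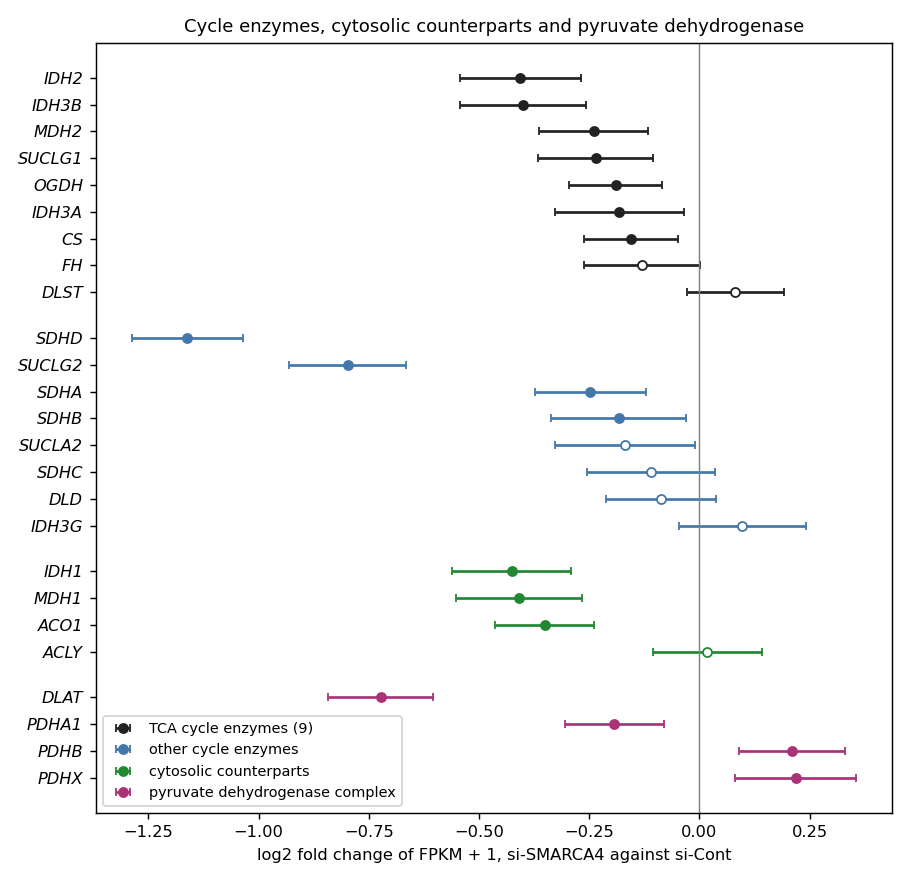
Log2 fold change of FPKM + 1 (horizontal axis) with its 95% limma interval for the 9 TCA cycle enzymes, other cycle genes, 4 cytosolic counterparts and 4 pyruvate dehydrogenase genes; filled points passed the adjusted p threshold of 0.05. SDHD, SUCLG2 and DLAT lie farthest below 0, outside the range of the 9 enzymes.

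Pyruvate dehydrogenase, which delivers acetyl-CoA to citrate synthase, had all 4 tested genes called, in opposite directions, beside 56.0% of all genes. DLAT, its acetyl-carrying core, fell from 11.8 ± 0.791 to 6.77 ± 0.113 FPKM (57.2% of si-Cont, limma adjusted p = 1.52e-06). PDHA1, the alpha subunit of its decarboxylase, fell to 86.2% of si-Cont, whereas the beta subunit PDHB rose to 120% and the DLD-binding component PDHX to 118% (limma adjusted p = 0.00781, 0.00715 and 0.0120). Without si-SMARCA4 replicate 1 PDHX did not pass (limma adjusted p = 0.0537). Of 5 tested genes that regulate the complex, 3 were lower and 1 higher, beside 33.6% and 22.4% of all genes. Of the 3 lower calls, 1 (limma adjusted p = 0.0499) was lost under each of the 4 other normalizations. PDPR, a regulator of the activating phosphatase, fell to 35.8% of si-Cont, and the inhibitory kinases PDK2 and PDK1 were called in opposite directions, PDK2 falling to 39.7% and PDK1 rising to 134% (limma adjusted p = 1.16e-07, 3.43e-06 and 0.00852). PDK1 averaged 0.860 FPKM in si-Cont and 1.15 FPKM in si-SMARCA4 and PDK2 2.09 and 0.829 FPKM, so each passed the filter of 1 FPKM only through the group where it was high, and PDK1 passed it in 3 of the 6 fits that left out 1 library. MPC2, 1 of the 2 subunits of the mitochondrial pyruvate carrier, fell from 86.9 ± 4.38 to 51.4 ± 1.38 FPKM (limma adjusted p = 1.94e-06), and the other, MPC1, stood at 12.4 FPKM in both groups.

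Among genes that bring carbon into the cycle or take it out, 5 of 9 tested were lower and 4 higher, beside 33.6% and 22.4% of all genes. PCK2, the mitochondrial phosphoenolpyruvate carboxykinase, fell to 19.3% of si-Cont, GLUD1, which makes 2-oxoglutarate from glutamate, from 129 ± 6.92 to 50.9 ± 2.37 FPKM, and the mitochondrial alanine transaminase GPT2 to 41.3% (limma adjusted p = 1e-08, 6.39e-08 and 2.47e-07). Among those that rose, named after their values were seen, were the malic enzymes ME1 and ME2 and the cytosolic aspartate transaminase GOT1. Lipoic acid is the cofactor of DLST and DLAT, and 3 genes that serve its synthesis or attachment were tested. Of these, NFU1 fell to 86.7%, LIPT1 rose from 1.25 to 1.63 FPKM with overlapping groups, and LIAS did not pass. Of the 4 succinate dehydrogenase assembly factors SDHAF3 (ACN9 in the table) and SDHAF1 fell, to 71.4% and 82.8% of si-Cont. SDHAF2 did not pass (limma adjusted p = 0.160), but was called higher under each of the 4 other normalizations (0.00651 to 0.0219). The SDHAF1 call was lost under upper-quartile scaling and with voom (limma adjusted p = 0.0535 and 0.0625). The calls of NFU1, LIPT1, SDHAF1 and ME2 were each lost in at least 3 of the 6 fits that left out 1 library. DHTKD1 and OGDHL, relatives of OGDH, fell to 54.9% and 62.3%, against 87.0% for OGDH (limma adjusted p = 1.18e-06 and 0.000427). Over these lists and the other cycle genes, 24 of 42 tested genes were lower and 8 higher, beside 33.6% and 22.4% of all genes. Of the 42, 27 kept 1 call under every alternative that tested them, and none was called in opposite directions by different alternatives. Some genes, PDK1 among them, fell below the filter in some alternatives and had no test there.

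**Figure D5:**
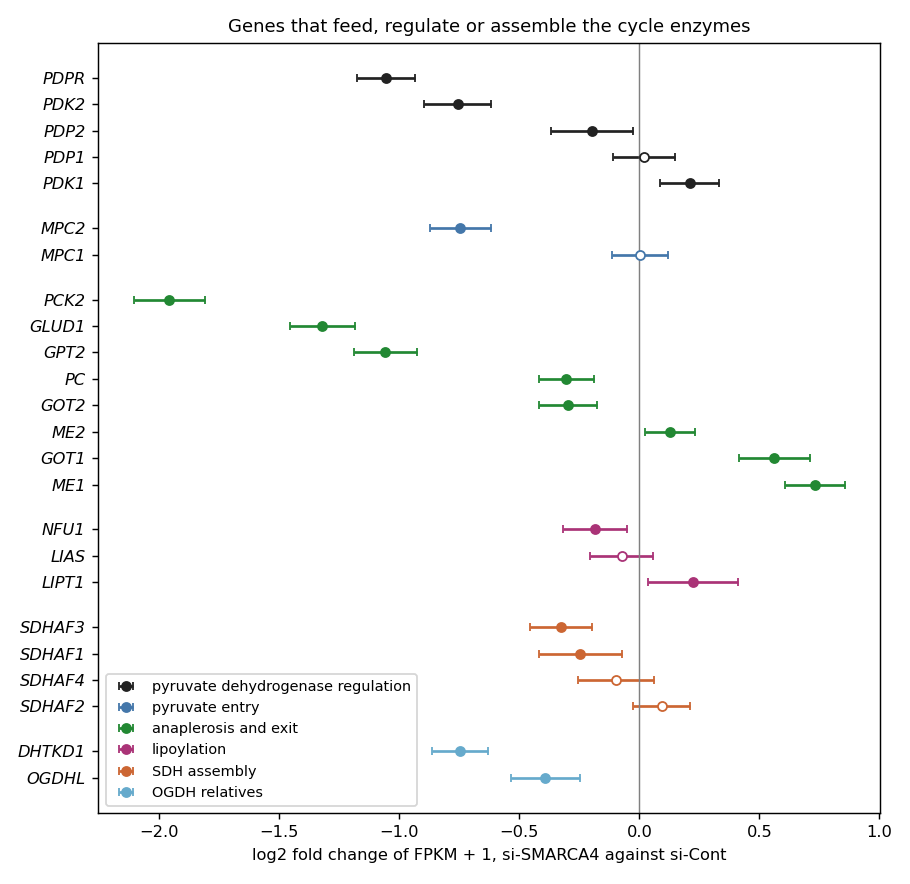
Log2 fold change of FPKM + 1 (horizontal axis) with its 95% limma interval for genes around the cycle. They regulate pyruvate dehydrogenase, carry pyruvate, bring carbon in or out, serve lipoic acid synthesis or attachment, assemble succinate dehydrogenase or are related to OGDH. Filled points passed the adjusted p threshold of 0.05. PCK2, GLUD1, GPT2 and PDPR are lowest, and ME1 and GOT1 highest.

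The genes whose profile over the 6 libraries was nearest to the mean profile of the 9 enzymes, by Euclidean distance of centred log2(FPKM + 1), were RBL2 (0.0184), MANBA (0.0205) and TAF10 (0.0230). The enzymes themselves lay between 0.0612 (MDH2) and 0.354 (DLST) from that mean profile.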

How the data were processed

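RNA sequencing values of 6 Hep3B libraries were used, grouped by their titles. The authors deposited FPKM for 57773 genes, and the submitters' processing notes name the hg19 build. No aligner, counting program, annotation or strandedness is given in the sources used here. In each of the 25119 genes with reads, FPKM steps gave whole reads and a gene length (relative tolerance 1e-08); read numbers speak for counting error only. The 9 enzymes had 311 to 5346 reads per library.

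Log2(FPKM + 1) of genes averaging at least 1 FPKM entered limma 3.58.1 (R 4.3.3, trend, two-sided, Benjamini-Hochberg). The fit was tried on simulated reads with a fixed spread that was not fitted to these libraries. It called 38 of 50 genes changed 1.25-fold and 14 of 10923 unchanged genes. Standard errors and 95% intervals are moderated. Ratios were tested by exact permutation with Python 3.11.15, numpy 2.4.6, pandas 2.3.3 and scipy 1.17.1, and figures drawn with matplotlib 3.10.9. Members and lists were chosen with earlier results of these data known. Named were the 9 enzymes, all genes of the cycle, its cytosolic counterparts and pyruvate dehydrogenase, and the 3 smallest p of each other list. Libraries sharing a replicate number in the titles correlated in their deviations from group means at 0.215, 0.181 and 0.162, and were taken as pairs in a blocked alternative. Other alternatives were pseudocounts, filters, normalizations, limma settings, summing rows of the same symbol, and omission of each library. Voom on recovered reads with median-ratio size factors was chosen after seeing the data. PECAM1 was not analysed here. Some genes of the lists, counted with them, are not reported by name.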

Additional observations from a re-analysis of the deposited data

How the results depend on the processing

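The count of 7 enzymes called lower was 5 to 8 when 1 library was left out (8 without si-Cont replicate 2), 8 with the replicate block and 4 under quantile normalization, where CS, IDH3A and OGDH did not pass. The count called higher was 0, and 1 (DLST) under median-ratio, upper-quartile and quantile normalization and under voom on recovered reads. FH changed sign under quantile normalization (0.016 on the log2 scale). IDH3A lost its call with no filter on low values and under median-ratio, upper-quartile and quantile normalization, and OGDH under upper-quartile and quantile normalization; the cause was not tested. Over all enzymes and alternatives, 140 fold changes kept direction and call, 14 lost the call, 6 gained it and 1 changed sign. The replicate block changed no other call of the 9 enzymes than that of FH. For the ratios 10 of 13 pairs moved one way in all 3 replicate pairs, which the 9 without overlap do by construction.

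Over all genes the 6227 calls became 3683 at a mean FPKM of at least 5, where 6120 genes were tested, and 5181 to 7140 when 1 library was left out. The count of 9 ratios without overlap was 9 to 11 when 1 library was left out. It could not fall, since groups that are apart stay apart when a library is removed. With a pseudocount of 1 the IDH3A ratios moved beyond the spread, to 0.22 against IDH3B and -0.28 against IDH3G. The planned runs with TMM factors and with a quasi-likelihood count model were not run, since the deposited values are FPKM. IDH3A rests on 311 to 449 reads per library, the fewest of the 9, which limits its precision.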

Other observations

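Some genes around the cycle averaged too little for the test and were picked out after their values were seen. PDK4, an inhibitory kinase of pyruvate dehydrogenase, stood at 0.395 ± 0.0535 FPKM in si-Cont and 1.07 ± 0.187 FPKM in si-SMARCA4 (SD, n = 3 each), without overlap. PDK3, another of these kinases, stood at 0.410 ± 0.0962 and 0.211 ± 0.133 FPKM with overlapping groups. PCK1, the cytosolic counterpart of PCK2, stood at 0.00205 and 0.00191 FPKM on average.

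Outside the 9 enzymes, 18 tested genes of the pathway lists held TGTCCA in the searched 3′ UTR, of which 13 were lower and 3 higher, with a median log2 fold change of -0.39. The 24 without it had 11 lower and 5 higher, with a median of -0.13. Among all searched genes with it, 39.8% of 3726 were lower and 19.8% higher, with a median of -0.08, and without it 30.6% of 6569 and 24.7%, with a median of -0.02. Over all genes tested 33.6% were lower and 22.4% higher. MPC2 and PDK2 fell with no such letters in the searched window. The letters were chosen on the fold changes of these same libraries, so the counts are a description.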
